A study of Mus musculus with 12 samples.

Results

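Expression of 37 histone genes was compared between fetal liver progenitors, megakaryocytes and erythroblasts. The genes were chosen by name, as the symbols of the array's annotation that follow the old or the current naming of histones, and not by their values. They are 37 of the 19937 genes that have a probe set with a single gene symbol. Where a gene had several, the brightest by its mean of all 12 arrays was taken; *H2az1* had 2 such probe sets and every other histone gene had 1. Replication-dependent genes numbered 27, of which 4 encode the linker histone H1, 3 encode H2A, 10 encode H2B, 3 encode H3 and 7 encode H4. *H2bu1-ps*, counted with the H2B genes, is annotated as a transcribed pseudogene. Another 5 genes encode replacement histones (*H2ax*, *H2az1*, *H2az2*, *H3f3a* and *H1f10*), and 5 encode histones known from germ cells (*H1f6*, *H1f7*, *H1f8*, *H2ac1* and *H2bc1*).

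Fetal livers of E14.5 mouse embryos supplied all cells. No strain, genotype or treatment is given for any group in the sources used here. The groups were profiled, each by 4 GeneChip Mouse Gene ST arrays from separate biological replicates. Hematopoietic stem and progenitor cells (HSPC, labelled HSC) were depleted of cells with lineage antigens and sorted for Sca1, and they are a mixture of progenitors. Erythroblasts (ERY) were purified with magnetic beads through Ter119, which maturing red cells carry, and like HSPC were not cultured. Megakaryocytes (MEG) were grown from KIT-expressing fetal liver progenitors, first with stem cell factor and thrombopoietin and then with thrombopoietin alone, and were enriched with beads on CD41, so that culture and cell type cannot be told apart in any comparison with MEG.

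Histones package DNA. The core histones H2A, H2B, H3 and H4 form the nucleosome, and H1 binds the DNA between nucleosomes. Replication-dependent histone genes lie in clusters of many near-identical copies, are transcribed mainly while DNA is copied in S phase, and give mRNAs that end in a stem-loop and carry no poly(A) tail. Replacement histones are encoded by single genes with ordinary polyadenylated mRNAs, are made throughout the cell cycle and are placed in chromatin by chaperones of their own. Erythroblasts divide quickly before they lose the nucleus, whereas megakaryocytes copy their DNA repeatedly without dividing and later stop.

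Values are log2 intensities after RMA, and 1 unit is a 2-fold change. Array medians lay between 5.99 and 6.25, and the highest value of the table was 13.96. Olfactory receptor genes, taken as a background, had a median of 4.39 and a 95th percentile of 6.20; 33 of the 37 histone genes reached that percentile with their mean in at least 1 population, and *H1f6*, *H1f8*, *H3c7* and *H3f3a* did not. The labels describe the extract as total RNA, whereas the study's methods describe mRNA obtained by affinity purification. How far replication-dependent transcripts were recovered was not tested. Coding sequences within a histone type are nearly alike, so a probe set with 1 symbol can take up RNA of other genes of its type, which was not tested either. Fewer cells of a type and less RNA per cell cannot be told apart in these bulk samples. Markers matched the labels, with 6 of 6 megakaryocyte markers highest in MEG, 6 of 6 erythroid markers highest in ERY and 5 of 6 stem and progenitor markers highest in HSPC. Markers of liver cells also differed. All 7 hepatocyte markers were highest in ERY, where their summed level (log2) lay between 13.95 and 14.58, against 11.87 to 13.64 in HSPC and 8.68 to 9.13 in MEG. All 7 were called higher in ERY and all 7 lower in MEG than in HSPC. Of 8 macrophage markers 7 were highest in ERY, with summed levels of 11.74 to 12.69 there, 11.07 to 11.49 in HSPC and 9.85 to 12.68 in MEG. Of 6 endothelial markers 3 were highest in HSPC, 2 in MEG and 1 in ERY, with summed levels of 9.62 to 10.29 in HSPC and 10.50 to 11.28 in MEG, and summed levels of 7 mast cell markers in HSPC, MEG and ERY were 9.72 to 10.62, 7.62 to 10.31 and 7.94 to 8.67. The part of these cells in the histone values was not tested.

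Replicates were not alike within HSPC, which touches every comparison below that uses them. HSPC arrays 1 and 2 both lay below arrays 3 and 4 in 26 of the 27 replication-dependent genes (96.3%), the exception being *H2bc4*, and in 54.4% of all genes. HSPC array 1 was the lowest of the 4 in 27 of 27, against 43.9% of all genes. MEG array 1 was the lowest MEG array in 14 of the 27 (51.9%), against 22.8% of all genes. The median SD of a replication-dependent gene was 0.41 in HSPC, 0.39 in MEG and 0.19 in ERY, where that of all genes was 0.26, 0.28 and 0.14. Markers also differed among the HSPC arrays: the median level of the 6 stem and progenitor markers was 9.78, 9.72, 9.0 and 8.69 on arrays 1 to 4, and that of the 6 megakaryocyte markers 8.27, 9.54, 9.67 and 9.69. The part of this difference in the histone values was not tested. Counts of called histone genes against HSPC are therefore also given without arrays 1 and 2 or without arrays 3 and 4 where these change them.

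Promoter sequences, shown here because many replication-dependent genes moved together, were taken from RefSeq annotation on the GRCm38.p6 build, as windows of 250 bases before to 50 bases after the start of the gene. A window was found for 31 of the 37 genes. *H2ax*, *H2bc21*, *H2bc4*, *H2bu1-ps*, *H3c7* and *H4c14* were not matched. Motifs were searched on both strands, and no motif contains another: the TATA box (TATAAA), the CCAAT box (CCAAT), the octamer (ATTTGCAT) known from H2A and H2B promoters, and the H1 box (AAACACA) known from H1 promoters. In the sequences below, written 5' to 3' on the strand of the gene, capitals mark these motifs on either strand. *H1f1* (chr13:23763418-23763717, plus strand) and *H1f2* (chr13:23738557-23738856, plus strand) are linker histone genes of the large cluster on chromosome 13 whose log2 fold changes in MEG had opposite signs. *H2ac4* (chr13:23750838-23751137, plus strand) had the largest decrease in MEG of all replication-dependent genes. *H2bc8* (chr13:23571150-23571449, plus strand) shares 279 of its 300 bases with the window of *H2ac8* on the opposite strand, and *H2az2* (chr11:6444394-6444693, minus strand) is a replacement histone gene.
H1f1: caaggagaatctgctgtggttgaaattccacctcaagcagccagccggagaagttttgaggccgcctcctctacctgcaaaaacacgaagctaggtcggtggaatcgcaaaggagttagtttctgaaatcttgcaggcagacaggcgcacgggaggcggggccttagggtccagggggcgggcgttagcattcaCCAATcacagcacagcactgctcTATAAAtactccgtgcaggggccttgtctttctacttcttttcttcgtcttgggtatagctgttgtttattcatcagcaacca
H1f2: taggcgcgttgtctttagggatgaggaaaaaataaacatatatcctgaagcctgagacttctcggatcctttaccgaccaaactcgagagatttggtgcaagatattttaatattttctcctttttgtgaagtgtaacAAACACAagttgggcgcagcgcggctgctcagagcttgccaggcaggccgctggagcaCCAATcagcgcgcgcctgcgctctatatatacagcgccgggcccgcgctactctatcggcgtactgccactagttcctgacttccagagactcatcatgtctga
H2ac4: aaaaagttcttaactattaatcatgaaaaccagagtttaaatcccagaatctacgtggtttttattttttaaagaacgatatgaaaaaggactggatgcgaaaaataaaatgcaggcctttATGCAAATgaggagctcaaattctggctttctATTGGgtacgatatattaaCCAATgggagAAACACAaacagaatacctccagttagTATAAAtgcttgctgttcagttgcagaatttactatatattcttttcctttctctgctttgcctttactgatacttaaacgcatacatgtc
H2bc8: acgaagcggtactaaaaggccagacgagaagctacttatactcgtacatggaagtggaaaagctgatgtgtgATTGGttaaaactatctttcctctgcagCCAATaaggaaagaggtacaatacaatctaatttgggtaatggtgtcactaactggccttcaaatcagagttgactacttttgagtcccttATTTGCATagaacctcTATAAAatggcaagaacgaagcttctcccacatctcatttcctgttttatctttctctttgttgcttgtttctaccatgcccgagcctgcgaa
H2az2: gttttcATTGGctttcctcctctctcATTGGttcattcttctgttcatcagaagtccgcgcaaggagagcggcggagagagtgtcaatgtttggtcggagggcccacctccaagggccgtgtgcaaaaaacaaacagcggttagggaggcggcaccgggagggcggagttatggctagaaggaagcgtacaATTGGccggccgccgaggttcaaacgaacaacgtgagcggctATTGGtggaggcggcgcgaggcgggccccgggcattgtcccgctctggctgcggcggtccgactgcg

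Motif content is given here by class of histone. TATAAA occurred in 14 of the 22 replication-dependent windows (63.6%), in 0 of 4 replacement windows and in 13.6% of all 32851 windows. CCAAT occurred in 18 of 22 (81.8%), in 3 of 4 replacement windows and in 37.4% of all windows. The octamer was found in 6 of 22 (27.3%), namely 4 of 7 H2B and 2 of 3 H2A windows, and in 1.74% of all windows; no H1, H3 or H4 window held it. The windows of *H2ac8* and *H2bc8* overlap, and their octamer is 1 genomic site counted in both, as are their matches to the TATA box and the CCAAT box. AAACACA was found in 5 of 22 (22.7%) against 7.18% of all windows, and in 3 of 4 replication-dependent H1 windows (*H1f2*, *H1f3* and *H1f5*). It was also found in 1 of 4 replacement windows, that of *H3f3a*. Of the 5 germ cell windows, TATAAA occurred in 2, CCAAT in 4, the octamer in 2 and AAACACA in 3. Both octamer windows are those of *H2ac1* and *H2bc1*, which overlap, and their octamer is 1 genomic site, as is their H1 box. These counts describe the letters of the windows and carry no test.

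Most replication-dependent histone genes were lower in MEG than in HSPC. With limma, at more than a 2-fold change and an adjusted p under 0.05, 17 of 27 were called lower and 1, *H2bc4*, was called higher; of all genes 11.4% were called lower and 8.77% higher. A test against the 2-fold threshold itself (treat) called 4 of the 27 and 2.47% of all genes lower, and *H2bc4* higher. The median log2 fold change of the 27 genes was -1.49, where that of all genes was -0.02, and 25 of 27 had a negative sign. Every type took part: 2 of 4 H1 genes, 2 of 3 H2A genes, 6 of 10 H2B genes, 2 of 3 H3 genes and 5 of 7 H4 genes were called lower. By position, 12 of the 20 genes of the large Hist1 cluster, 3 of 4 of Hist2, 1 of 2 of Hist3 and the single gene of Hist4, *H4f16*, were called lower. Without HSPC arrays 1 and 2 the count of lower genes was 20, where 13.9% of all genes were lower. Without HSPC arrays 3 and 4 it was 14, where 9.69% of all genes were lower. When each array was centred on the ribosomal protein genes, the median of all genes rose to 0.56 and that of the 27 was -0.91. Of the 27, 11 were then called lower. The centring shifts every gene of a comparison by the same amount, so the distance between these medians cannot change. That centring called 21.8% of all genes higher and 4.56% lower.

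**Figure D1:**
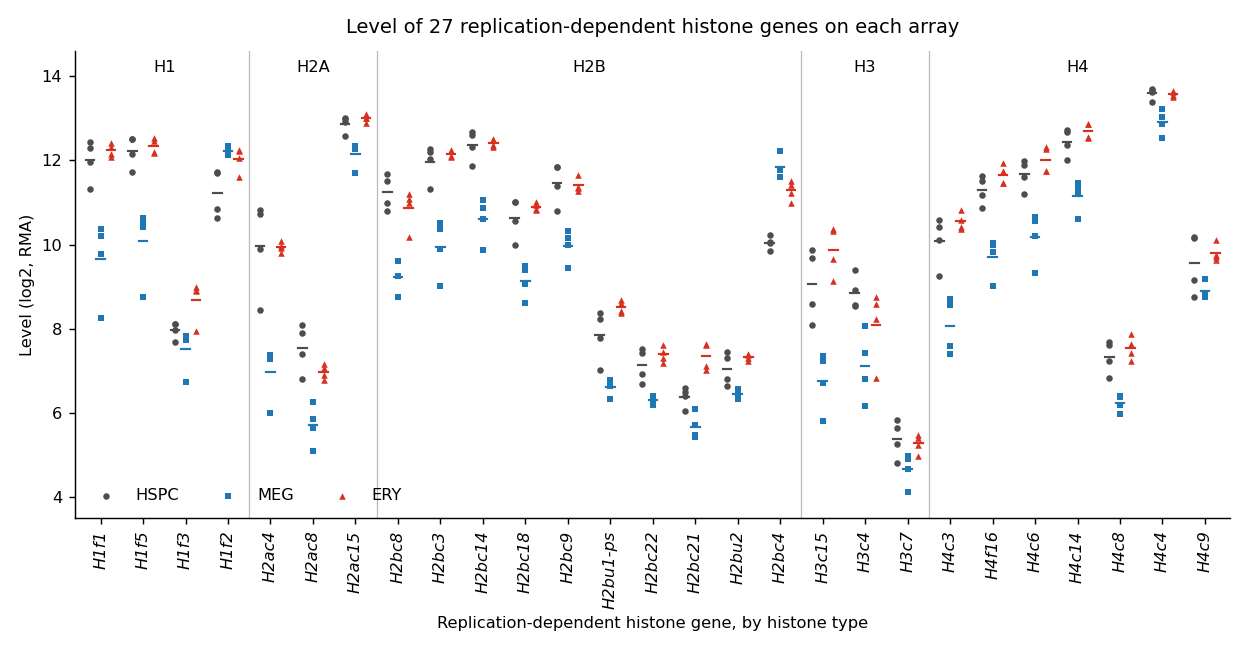
Level (log2, RMA) of the 27 replication-dependent histone genes on each of the 12 arrays, grouped by histone type, with a line at the mean of 4 arrays. The MEG arrays lie below the HSPC arrays for most genes, while H2bc4 and H1f2 have their lowest mean in HSPC.

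*H2ac4* (formerly *Hist1h2ab*), a gene of core histone H2A, had the largest decrease. Its levels were 8.44, 9.89, 10.73 and 10.81 on the HSPC arrays and 6.0, 7.36, 7.28 and 7.27 on the MEG arrays. The populations did not overlap, and the lowest value of each came from its array 1. *H2ac4* fell by 2.99 on the log2 scale (SE 0.46, limma adjusted p = 0.000306), a 7.94-fold decrease. On the ERY arrays it stood at 10.08, 9.96, 9.80 and 9.91, within the range of the HSPC arrays. Its promoter window holds all 4 motifs, including the octamer on the reverse strand.

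*H3c15* (formerly *Hist2h3c2*), a gene of core histone H3, read 8.09, 8.59, 9.67 and 9.86 in HSPC and 6.70, 7.34, 7.22 and 5.79 in MEG, without overlap. It fell by 2.29 (SE 0.45, limma adjusted p = 0.0016). *H4c3* (*Hist1h4c*), which encodes H4, read 9.25, 10.11, 10.58 and 10.42 in HSPC and 7.59, 8.70, 8.57 and 7.39 in MEG and fell by 2.03 (SE 0.33, limma adjusted p = 0.000498). H2B genes were next in size. *H2bc8* went from 11.24 ± 0.42 to 9.22 ± 0.35 (SD, n = 4 arrays), a log2 fold change of -2.02 (limma adjusted p = 0.000111), and *H2bc3* from 11.96 ± 0.44 to 9.95 ± 0.67, a log2 fold change of -2.01 (limma adjusted p = 0.000236). No MEG array of either gene reached the HSPC arrays. *H2ac8*, the H2A gene that faces *H2bc8* across the shared window printed above, was also called lower, from 7.54 ± 0.58 to 5.71 ± 0.49, a fall of 1.83 on the log2 scale (SE 0.29, limma adjusted p = 0.00035). Its MEG mean lay below the background limit of 6.20, the 95th percentile of the olfactory receptor genes, so the size of this fall is uncertain.

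At the other end of the 23 core histone genes, 4 genes moved least toward lower values in MEG and did not pass the fold threshold. They were *H2bu2* (log2 fold change -0.59), *H4c9* (-0.66), *H4c4* (-0.68) and *H2ac15* (-0.70). *H4c4* and *H2ac15* are among the brightest probe sets, with HSPC means of 13.60 and 12.87 on a table that ends at 13.96. Whether such values were compressed near the top of the scale was not tested. *H4c9* had overlapping arrays, with 8.74 to 10.18 in HSPC and 8.75 to 9.19 in MEG. Among the called genes, *H4c8* had the smallest decrease, at -1.10 (SE 0.20, limma adjusted p = 0.00115), which was -0.98 without HSPC array 3 and then missed the 2-fold threshold.

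*H2bc4* (formerly *Hist1h2bc*), an H2B gene whose transcripts are also known in a polyadenylated form, took the opposite direction. Its levels were 9.84, 10.23, 10.06 and 10.03 on the HSPC arrays, 12.23, 11.79, 11.78 and 11.60 on the MEG arrays, and 11.22, 10.99, 11.42 and 11.52 on the ERY arrays. The 3 populations did not overlap. *H2bc4* rose by 1.81 in MEG (SE 0.165, limma adjusted p = 6.09e-06) and by 1.25 in ERY (SE 0.165, limma adjusted p = 7.79e-05), and the MEG and ERY means differed by 0.56 (SE 0.165, limma adjusted p = 0.023), below 2-fold. The increase in MEG was called under each of the 29 alternatives, some of which, such as the 1.5-fold threshold, could not have dropped it. The increase in ERY was called in all of them but treat.

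Linker histones also went in both directions. *H1f1* (*Hist1h1a*) stood at 11.32, 11.97, 12.44 and 12.30 in HSPC and at 8.25, 10.20, 10.37 and 9.77 in MEG, a fall of 2.36 (SE 0.39, limma adjusted p = 0.00057). *H1f5* (*Hist1h1b*) stood at 11.73, 12.15, 12.51 and 12.52 in HSPC and at 8.76, 10.64, 10.52 and 10.41 in MEG, a fall of 2.15 (SE 0.36, limma adjusted p = 0.000532). Neither gene overlapped between the populations, and in both the lowest MEG value was that of array 1. *H1f3* (*Hist1h1d*) differed by -0.46 (SE 0.28, limma adjusted p = 0.232), within the spread of its arrays. *H1f2* (*Hist1h1c*), by contrast, read 10.63, 10.84, 11.72 and 11.70 in HSPC and 12.34, 12.20, 12.21 and 12.13 in MEG, so that all MEG arrays lay above all HSPC arrays. Its log2 fold change of 0.998 (SE 0.24, limma adjusted p = 0.00684) was just under the 2-fold threshold, so it was not called. The value passed the threshold at 1.16 without HSPC array 3 or 4, and at 1.001 to 1.03 without MEG array 2, 3 or 4. It was 0.80 without HSPC array 1 and 0.87 without array 2. With HSPC arrays 3 and 4 both left out it was 1.49, and with arrays 1 and 2 both left out it was 0.51 (SE 0.18, limma adjusted p = 0.0372). In the windows printed above *H1f2* has the H1 box and no TATAAA, and *H1f1* has TATAAA and no H1 box. The windows of *H1f5*, which fell as *H1f1* did, and of *H1f3* hold both motifs. The search took exact letters, so variant forms of a TATA box were not counted. A link between motifs and direction was not tested.

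**Figure D2:**
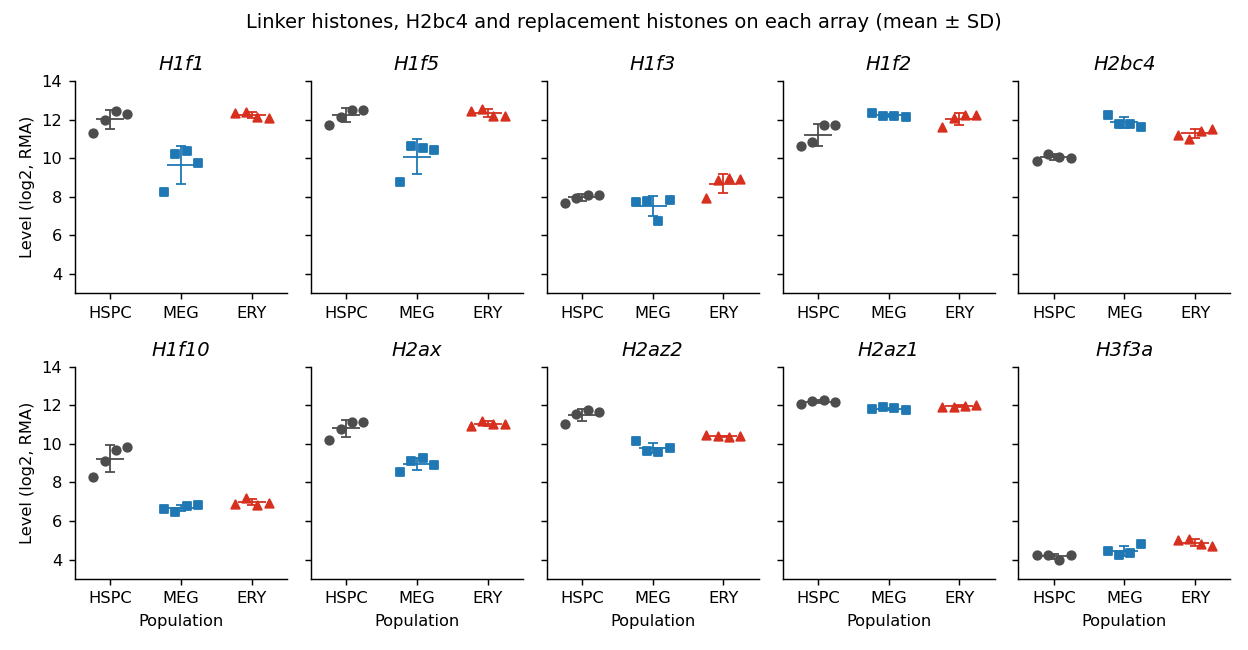
Level (log2, RMA) of 4 linker histone genes, H2bc4 and the 5 replacement histone genes on each array, with mean ± SD of 4 arrays per population; points are arrays 1 to 4 from left to right. H1f1 and H1f5 are lowest in MEG, H1f2 and H2bc4 are lowest in HSPC, and H1f10 and H2az2 are highest in HSPC.

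Between ERY and HSPC the replication-dependent histones differed little. In limma, 1 of 27 was called higher, again *H2bc4*, and 0 were called lower, where 8.35% of all genes were called higher and 12.3% lower. At an unadjusted p under 0.05, 5 were higher (*H1f2*, *H1f3*, *H2bc21*, *H2bc4* and *H2bu1-ps*) and 0 were lower, where 16.2% of all genes were higher and 23.4% lower. The median log2 fold change was 0.23 for the 27 genes and 0.03 for all genes. Its sign depended on the progenitor arrays: it was 0.60 without HSPC arrays 3 and 4, when 5 genes and 5.86% of all genes were called higher, and -0.08 without HSPC arrays 1 and 2, when *H2bc4* was called higher and *H2ac8* lower. Centred on the ribosomal protein genes, 6 genes and 14.9% of all genes were called higher. The median was then 0.67, and that of all genes 0.47, a distance that this centring cannot change.

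After *H2bc4*, the core genes with the largest positive differences in ERY were *H2bc21* (*Hist2h2be*, an H2B gene), *H3c15*, *H2bu1-ps* and *H4c3*. *H2bc21* read 6.03, 6.39, 6.49 and 6.58 in HSPC and 7.02, 7.12, 7.61 and 7.63 in ERY, with every ERY array above every HSPC array. Its log2 fold change of 0.98 (SE 0.20, limma adjusted p = 0.00203) was under 2-fold, and it passed that threshold, at 1.02 to 1.08, without HSPC array 3 or 4 or without ERY array 1 or 2. In MEG the same gene stood at 6.08, 5.70, 5.46 and 5.41, for a log2 fold change of -0.71 against HSPC (limma adjusted p = 0.0149), also under 2-fold. *H3c15*, *H2bu1-ps* and *H4c3* differed in ERY by 0.82, 0.68 and 0.46, and none passed (limma adjusted p = 0.203, 0.0509 and 0.352). The largest negative differences, *H3c4* (-0.76), *H2ac8* (-0.57), *H2bc8* (-0.38), *H3c7* (-0.12) and *H2bc9* (-0.06), did not pass either. *H3c7* lay below the background limit on all of these arrays. In *H3c4*, ERY array 1 read 6.82 and the other ERY arrays 8.22 to 8.75. Of the linker histones, *H1f2* differed by 0.82 (SE 0.24, limma adjusted p = 0.0207), *H1f3* by 0.72 (SE 0.28, limma adjusted p = 0.0684), *H1f1* by 0.23 and *H1f5* by 0.11. The smallest differences do not show that the levels were equal.

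**Figure D3:**
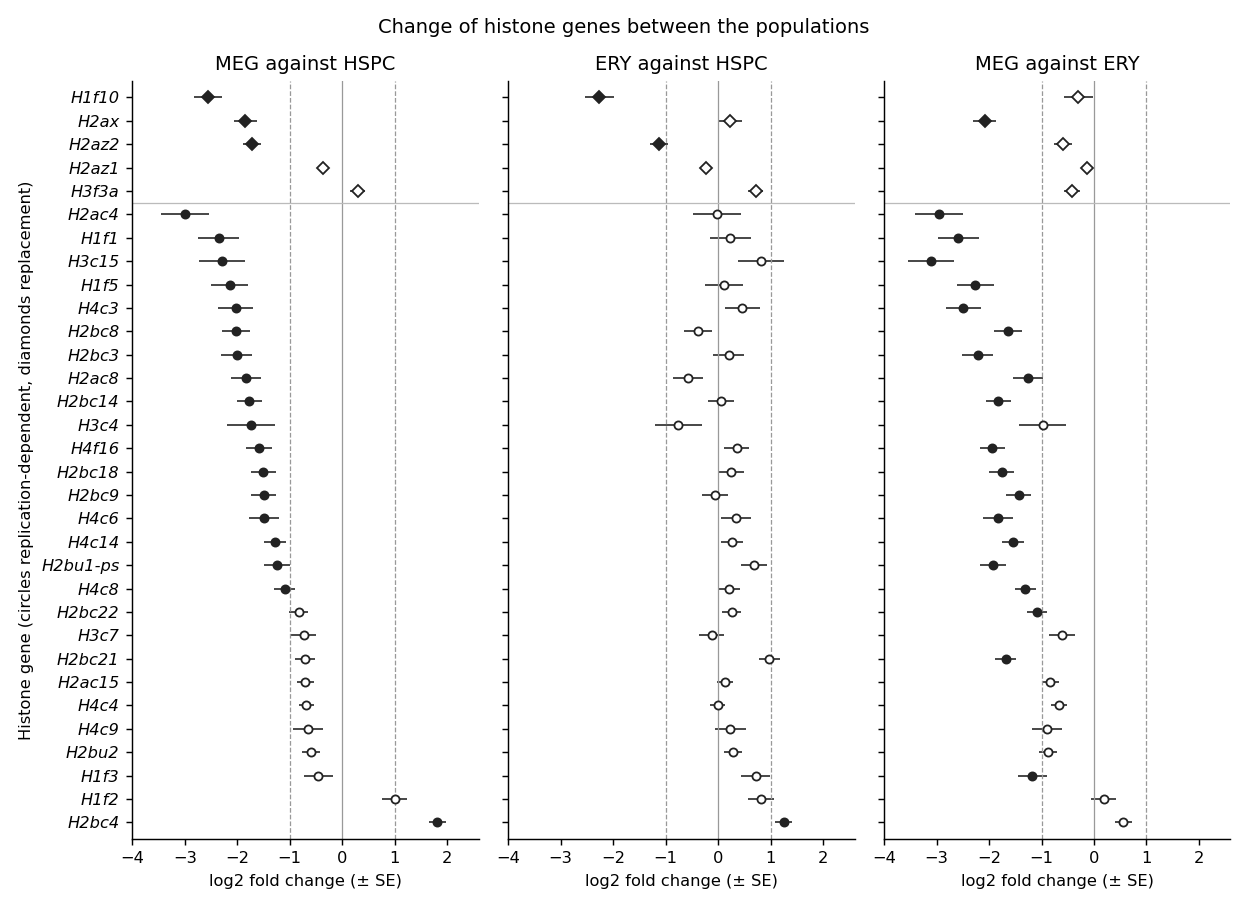
Log2 fold change with its SE for the 27 replication-dependent histone genes (circles) and the 5 replacement histone genes (diamonds) in the 3 comparisons; filled symbols were called by limma and dashed lines mark 2-fold. In ERY against HSPC the filled circle is H2bc4; in both comparisons with MEG most circles are filled and lie below -1.

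MEG and ERY were also compared directly, so that the HSPC arrays entered only the estimate of the spread. By limma, 19 of the 27 replication-dependent genes were lower and 0 higher in MEG, where 7.77% of all genes were called lower and 8.75% higher; treat called 10 of the 27 and 3.1% of all genes lower. At an unadjusted p under 0.05, 25 were lower and 1, *H2bc4*, was higher, where 17.4% of all genes were lower and 16.4% higher. The median log2 fold change was -1.54, against -0.02 for all genes. *H3c15* had the largest difference at -3.11 (SE 0.45, limma adjusted p = 0.000161), with 9.14, 9.66, 10.31 and 10.36 in ERY. It was followed by *H2ac4* (-2.96, SE 0.46), *H4c3* (-2.49, SE 0.33), *H2bc3* (-2.22, SE 0.30) and *H4f16* (-1.94, SE 0.24). *H4f16*, an H4 gene outside the large clusters, read 9.02, 9.98, 10.04 and 9.82 in MEG and 11.76, 11.94, 11.46 and 11.47 in ERY. Of the linker histones, *H1f1* (-2.59), *H1f5* (-2.26) and *H1f3* (-1.17) were lower in MEG, and *H1f3* was short of 2-fold, at -0.91, without MEG array 3. *H1f2* differed by 0.18 (SE 0.24, limma adjusted p = 0.675). *H2bc4* was the only core gene with a positive sign in this comparison. The next in order were *H3c7* (-0.61), *H4c4* (-0.67), *H2ac15* (-0.83) and *H2bu2* (-0.87), which did not pass. Without ERY array 1, *H3c4* also passed, at -1.40. The comparison is not free of other differences, since the hepatocyte and macrophage markers above also differed between the 2 populations.

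Replacement histones did not follow a single pattern. In limma 3 of 5 were called lower in MEG and 2 of 5 lower in ERY when set against HSPC. In MEG set against ERY 1 of 5 was lower, and 0 were called higher in any comparison. Of all genes 11.4%, 12.3% and 7.77% were called lower in these comparisons, in that order, and 8.77%, 8.35% and 8.75% higher. At an unadjusted p under 0.05, *H3f3a* was higher in ERY than in HSPC and no other replacement gene was higher in a comparison. At that threshold the comparison of MEG with HSPC had 18.9% of all genes higher and 24.7% lower. That of ERY with HSPC had 16.2% higher and 23.4% lower. *H1f10* (*H1fx*), a linker histone made outside S phase, read 8.28, 9.11, 9.68 and 9.84 in HSPC, 6.62, 6.46, 6.79 and 6.82 in MEG, and 6.90, 7.20, 6.85 and 6.92 in ERY. It fell by 2.56 in MEG (SE 0.28, limma adjusted p = 2.29e-05) and by 2.26 in ERY (SE 0.28, limma adjusted p = 4.13e-05), and MEG and ERY differed by less than 2-fold. *H2az2* (*H2afv*), which encodes a form of H2A.Z, the H2A variant of promoters, had HSPC values of 11.03, 11.57, 11.74 and 11.67, MEG values of 10.15, 9.65, 9.57 and 9.78 and ERY values of 10.44, 10.38, 10.33 and 10.38. It fell by 1.71 in MEG (SE 0.17, limma adjusted p = 1.35e-05) and by 1.12 in ERY (SE 0.17, limma adjusted p = 0.000256). Without HSPC arrays 3 and 4 the change of *H2az2* in ERY was -0.92, under 2-fold, and the centring on ribosomal protein genes gave -0.69.

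*H2az1* (*H2afz*), the other H2A.Z gene, stayed within 2-fold, at 12.18 ± 0.08 in HSPC, 11.82 ± 0.07 in MEG and 11.96 ± 0.05 in ERY (SD, n = 4 arrays). *H2ax* (*H2afx*), whose protein is phosphorylated at DNA breaks and whose mRNA is known in both stem-loop and polyadenylated forms, had its lowest level in MEG, as most replication-dependent genes did. It read 10.19, 10.79, 11.13 and 11.12 in HSPC, 8.54, 9.13, 9.28 and 8.88 in MEG, and 10.90, 11.20, 11.02 and 11.04 in ERY. *H2ax* fell by 1.85 in MEG against HSPC (SE 0.22, limma adjusted p = 4.36e-05). Its log2 fold change in MEG against ERY was -2.08 (SE 0.22, limma adjusted p = 9.94e-06), and ERY and HSPC differed by 0.23 (SE 0.22, limma adjusted p = 0.48). The probe set of *H3f3a*, a gene of the H3 variant H3.3, lay at the background on every array, from 3.95 to 5.05, and its difference of 0.72 in ERY (limma adjusted p = 0.00234) was under 2-fold.

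Other probe sets name an H3.3 gene, each together with another gene. There were 28 histone probe sets with several symbols, left out of the counts above. Of these, 4 name *H3f3a* together with the gene *Gm12657*, and their means lay between 10.60 and 11.26 in HSPC, 11.31 and 11.91 in MEG, and 11.86 and 12.43 in ERY. The share of either gene in their signal was not tested, and sets that name the same genes are not separate evidence. All 4 were called higher in ERY than in HSPC by limma, with log2 fold changes of 1.17 to 1.37. In MEG they differed from HSPC by 0.64 to 0.71 and 0 were called. Of all genes 8.35% were called higher in ERY and 8.77% in MEG. In all 4 sets HSPC arrays 1 and 2 lay above arrays 3 and 4, the reverse of the order in the replication-dependent genes. Without HSPC arrays 3 and 4 the differences in ERY were 0.86 to 0.99 (limma adjusted p between 0.000293 and 0.00137), so that 0 of 4 passed 2-fold. Of all genes 5.86% were then called higher in ERY. Without HSPC arrays 1 and 2 all 4 were called in ERY, at 1.48 to 1.78, and 2 of 4 in MEG, at 0.96 to 1.10 for the 4 sets. The shares of all genes called higher were then 12.3% in ERY and 12.7% in MEG. The 2 sets that name *H3f3b*, the second H3.3 gene, together with *Gm6485* were called in 0 comparisons, with differences of 0.03 and 0.50 in MEG and -0.05 and -0.45 in ERY, and limma adjusted p values of 0.914, 0.0588, 0.885 and 0.037.

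A further 18 of these sets name only replication-dependent genes, 9 of them of H3, which has few probe sets of a single gene. In MEG against HSPC 9 of the 18 were called lower and 0 higher, where 11.4% of all genes were lower and 8.77% higher. All 18 had a negative sign, and the median log2 fold change was -1.0, with a range from -3.67 to -0.39. Sets of the same histone type can name the same genes, so the 18 sets are not separate evidence. Without HSPC arrays 1 and 2 there were 12 called lower, and without arrays 3 and 4 there were 6, with medians of -1.40 and -0.78. Of all genes 13.9% and 9.69% were called lower there. In ERY against HSPC 0 were called by limma, with adjusted p values of 0.372 or more and a median of 0.08 (1 was called lower without HSPC arrays 1 and 2). In MEG against ERY 11 were called lower with a median of -1.20. Of all genes 12.3% were called lower in ERY against HSPC and 7.77% in MEG against ERY. The set with the largest change, which names several H3 genes, read 6.59, 7.56, 9.15 and 8.98 in HSPC, 3.56, 4.95, 5.0 and 4.09 in MEG, and 6.79, 7.25, 7.85 and 8.14 in ERY. Its MEG values lay below the 95th percentile of the olfactory receptor genes. The set of H3 genes with the smallest change had an HSPC mean of 13.26 and a MEG mean of 12.87, near the top of the scale.

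**Figure D4:**
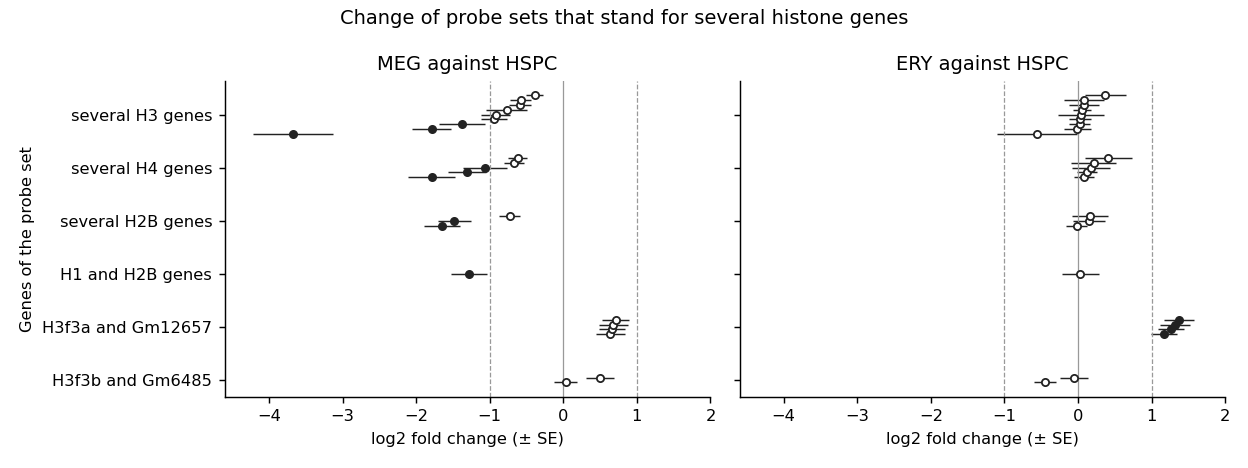
Log2 fold change with its SE of histone probe sets that name several genes, by the genes they name, in MEG and in ERY against HSPC; filled symbols were called by limma and dashed lines mark 2-fold. All sets of replication-dependent genes lie below 0 in MEG, and the 4 sets of H3f3a and Gm12657 lie above 1 in ERY.

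Germ cell histones were mostly near the background. *H1f6*, *H1f7* and *H1f8*, linker histones of testis and oocyte, had means of 5.24 to 5.55, 6.38 to 6.58 and 4.66 to 4.77, and 0 of them were called by limma in any comparison, nor did any reach an unadjusted p under 0.05. *H2ac1* and *H2bc1*, the testis forms of H2A and H2B, are neighbours whose promoter windows share 220 bases on opposite strands. *H2bc1* read 7.88, 8.61, 8.96 and 8.94 in HSPC and 7.33, 7.64, 7.68 and 7.57 in MEG, a fall of 1.04 (SE 0.21, limma adjusted p = 0.00196). The change was under 2-fold, at -0.92, -0.93 and -0.97, without HSPC array 3, HSPC array 4 or MEG array 1. It was -0.69 without HSPC arrays 3 and 4, under 2-fold, and -1.40 without HSPC arrays 1 and 2. *H2ac1* read 8.58, 8.86, 9.21 and 9.28 in HSPC and 7.60, 8.13, 7.98 and 8.23 in MEG. Its log2 fold change of -0.997 (limma adjusted p = 0.000868) was just short of the threshold, which it passed at -1.04 to -1.13 without HSPC array 1 or 2 or MEG array 2 or 4. The log2 fold change of *H2ac1* was -1.26 without HSPC arrays 1 and 2, past the threshold, and -0.73 without HSPC arrays 3 and 4. In MEG against ERY its log2 fold change was -1.03 (limma adjusted p = 0.000689), and -0.90 without MEG array 1. Both genes resemble other H2A and H2B genes, and the share of other transcripts in their signal was not tested.

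Genes of S phase moved with the replication-dependent histones in MEG. Of all genes, limma called 11.4% lower and 8.77% higher in MEG against HSPC. The shares were 12.3% and 8.35% in ERY against HSPC, and 7.77% and 8.75% in MEG against ERY. Of 25 measured genes of S phase and DNA replication, 18 were called lower in MEG than in HSPC and 0 higher by limma, with a median log2 fold change of -1.75, and *Cdt1*, which licenses origins (-2.71, SE 0.32), *Mcm7*, a subunit of the replicative helicase (-2.62, SE 0.32), and *Tk1*, thymidine kinase (-2.58, SE 0.25), changed most. In MEG against ERY 24 of 25 were lower, with a median of -2.60, led by *Ccne1*, cyclin E1 (-3.56), *Rrm2*, a subunit of ribonucleotide reductase (-3.23), and *Orc1*, a subunit of the origin recognition complex (-3.08). In ERY against HSPC 10 of 25 were higher and 0 lower, with a median of 0.92, and *Ccne2*, cyclin E2 (2.86), *Pola1*, the catalytic subunit of DNA polymerase alpha (1.95), and *Orc1* (1.87) led. The median level of the 25 genes was 9.76, 9.93, 9.84 and 9.90 on the HSPC arrays, while that of the 27 histone genes on the same arrays was 9.84, 10.23, 10.73 and 10.81. Array 1 was lowest in both, but the split of HSPC arrays 1 and 2 from arrays 3 and 4 was not seen in the S phase medians. The order of the arrays in single S phase genes was not tested. On the MEG arrays the S phase medians were 7.11, 8.56, 8.83 and 8.32 and the histone medians 8.76, 9.40, 9.25 and 8.75, with array 1 lowest or near lowest in both.

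**Figure D5:**
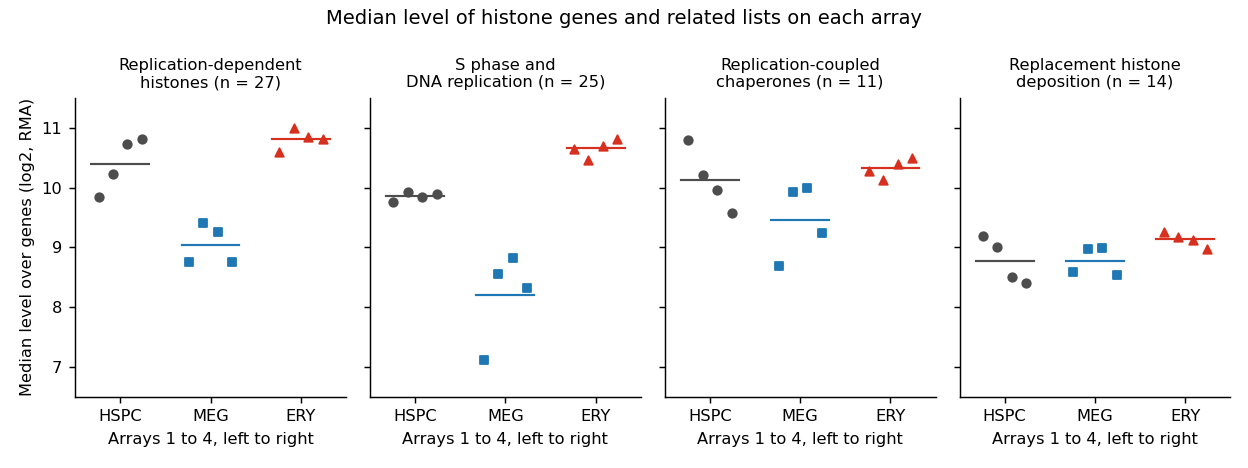
Median level (log2, RMA) over the genes of each list on each array, with a line at the mean of 4 arrays per population. Replication-dependent histones and S phase genes are lowest on the MEG arrays; on the HSPC arrays the histone medians run from 9.84 to 10.81 and the S phase medians from 9.76 to 9.93.

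Factors that act in the transcription and processing of histone mRNA went in both directions in MEG. Of 12 measured, 4 were called lower and 2 higher than in HSPC, with a median of -0.54, where 11.4% of all genes were lower and 8.77% higher. *Cdk2*, the kinase that acts with cyclin E, fell by 2.05 (SE 0.20, limma adjusted p = 1.02e-05), whereas *Cpsf2*, a subunit of the cleavage complex, rose by 1.43 (SE 0.33) and *Npat*, the coactivator of histone genes, by 1.42 (SE 0.45). *Slbp*, which binds the stem-loop of histone mRNA, went from 9.44 in HSPC to 8.16 in MEG and 10.86 in ERY. It fell by 1.27 in MEG and rose by 1.43 in ERY (SE 0.33, limma adjusted p = 0.0104 and 0.00503). In ERY 5 of 12 were higher and 2 lower, where 8.35% of all genes were higher and 12.3% lower. *Casp8ap2*, an S phase factor of histone gene expression (1.78), *Npat* (1.75) and *Slbp* had the largest changes. Between MEG and ERY 2 of 12 were lower in MEG, namely *Slbp* (-2.70) and *Cdk2* (-1.81), and 0 were higher. Of all genes 7.77% were lower and 8.75% higher in that comparison.

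Chaperones are given by the route they serve. For the counts below, the shares of all genes called lower and higher were 11.4% and 8.77% in MEG against HSPC. They were 12.3% and 8.35% in ERY against HSPC, and 7.77% and 8.75% in MEG against ERY. Of 11 measured chaperones of new histones, 5 were called lower and 0 higher in MEG than in HSPC, with a median of -1.08. The largest changes were in *Ipo4*, an importin that carries H3 and H4 (-2.41, SE 0.29), and in *Chaf1b* (-1.87, SE 0.30) and *Chaf1a* (-1.33, SE 0.23), subunits of chromatin assembly factor 1. In ERY 1 was lower, *Ipo4* (-1.92), and 2 were higher, *Asf1a* (1.58) and *Supt16* (1.51), and between MEG and ERY 6 were lower in MEG, led by *Asf1b* (-2.08), *Chaf1b* (-1.99) and *Chaf1a* (-1.76). Of 14 measured genes for the deposition of replacement histones, 2 were lower and 1 higher in MEG than in HSPC, with a median of -0.62. These counts were near the shares of all genes. The called genes were *Cabin1* of the HIRA complex (-1.27), *Znhit1* of the SRCAP complex (-1.01) and *Ubn2*, also linked to HIRA (1.35). In ERY 3 were higher, namely *Oip5*, which loads the centromeric H3 variant (2.12), *Anp32e*, a chaperone of H2A.Z (1.48), and *Ubn2* (1.38), and 1, *Vps72*, was lower. Between MEG and ERY 6 of 14 were lower in MEG, led by *Oip5* (-2.92), *Anp32e* (-1.40) and *Cenpa*, the centromeric H3 variant (-1.36). On the HSPC arrays the medians of these 2 lists were highest on array 1, at 10.80 and 9.19, and lowest on array 4, at 9.57 and 8.41, again unlike the replication-dependent genes.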

How the data were processed

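Gene expression was measured on 12 arrays, 4 for each of 3 populations. The authors processed them by RMA (version not given in the sources used here), which corrects background, normalizes the arrays to each other and summarizes probes, and deposited log2 values. A change in total mRNA per cell is therefore not seen. The number of arrays limits precision. Of 34760 probe sets, 21640 carry 1 gene symbol in the platform annotation and gave 19937 genes, 1321 carry several symbols and 11799 are not annotated there.

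Models were fitted in R 4.3.3 with limma 3.58.1, with 1 mean per population over all 12 arrays, empirical Bayes moderation and Benjamini-Hochberg adjustment over all 19937 genes without an expression limit. A gene was called at an adjusted p under 0.05 and more than a 2-fold change, the study's thresholds; single-gene p values are limma's. Promoter windows came from RefSeq (GRCm38.p6). Python 3.11.15 was used with numpy 2.4.6, pandas 2.3.3 and matplotlib 3.10.9.

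Named are all linker and replacement histones, for each comparison the replication-dependent core genes at either end of the order of log2 fold changes, 5 at each end, and the 3 called genes of each partner list with the largest change; the other histone genes named were chosen after their values were seen. Members and lists were chosen with earlier results of these data known. Alternatives were 2 expression limits, quantile normalization, centring on ribosomal protein genes or on the array median, the mean over probe sets, probe sets of several histone genes, fits of just the 8 arrays of a comparison, a block for replicate number, robust moderation with a trend, weights for arrays, a 1.5-fold threshold, an FDR of 1%, treat, and leaving out single arrays or pairs of them; for probe sets of several genes, leaving out pairs of HSPC arrays was chosen after seeing the data.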

Additional observations from a re-analysis of the deposited data

Results flagged for a closer look

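The highest or the lowest of the 4 arrays of a population stood apart from the others in 6 of 111 combinations of histone gene and population, by Dixon's ratio of the gap to the whole range; about 1 in 20 such groups would be picked out by chance. In MEG, array 1 was low in 3 replication-dependent genes: *H2ac4*, at 6.0 where the others read 7.27 to 7.36 (ratio 0.935), *H2ac15*, at 11.71 where the others read 12.28 to 12.34 (ratio 0.907), and *H1f5*, at 8.76 where the others read 10.41 to 10.64 (ratio 0.878). On the same array the median of the 25 S phase genes was 7.11, against 8.32 to 8.83 on the other MEG arrays, and the part of this array in the histone values was not tested beyond leaving it out. Without it, 17 replication-dependent genes were still called lower in MEG than in HSPC and 19 lower than in ERY. Of all genes 10.6% and 7.4% were lower in these comparisons. *H1f3* was low on MEG array 3, at 6.72 where the others read 7.72 to 7.83 (ratio 0.902), and on ERY array 1, at 7.94 where the others read 8.89 to 8.99 (ratio 0.912). *H3f3a* was low on HSPC array 3, at 3.95 where the others read 4.22 to 4.24 (ratio 0.940), all of them at the background.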

How the results depend on the processing

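Calls were recomputed under 29 alternatives. Of 1334 values of histone genes called in a comparison, 1281 kept the call, and 0 of 3195 values of all histone genes reversed a call. Some alternatives could hardly drop a call, so these counts overstate what was put to the test. The 1.5-fold threshold only loosens the limit, and the mean over probe sets changes the values of *H2az1* alone among the histone genes. Leaving out an array of the population not compared leaves the fold changes as they were. Of the replication-dependent genes, 17 were called lower in MEG than in HSPC, and 11 with centring on the ribosomal protein genes. The count was 26 with the 18 probe sets of several histone genes added, which are not separate evidence, and 4 with treat. Of all genes 11.4%, 4.56%, 11.4% and 2.47% were called lower in these settings, in that order. The 1 called higher became 2 with quantile normalization, that centring, the 1.5-fold threshold and without HSPC arrays 3 and 4. The shares of all genes called higher were then 8.98%, 21.8%, 12% and 5.4%. With single arrays left out the count ranged from 1 to 2, and the share of all genes from 7.16% to 11%. *H1f2* was the gene added in each case. In ERY against HSPC the 1 called higher became 6 with that centring, 3 at 1.5-fold and 0 with treat. It became 5 without HSPC arrays 3 and 4. Of all genes 14.9%, 11.4%, 2.98% and 5.86% were called higher in these settings, in that order. When single arrays were left out the count ranged from 1 to 2, with *H2bc21* added, and the share of all genes from 7.16% to 10.4%. The 0 called lower became 1 with array weights, whose fit did not converge fully, and 1 without HSPC arrays 1 and 2. In MEG against ERY the 19 called lower became 30 with the added probe sets and 10 with treat. The shares of all genes were 7.82% and 3.1%. Of the replacement histones in ERY, 1 was called higher with the ribosomal centring and at 1.5-fold, where 14.9% and 11.4% of all genes were. With that centring, with treat and without HSPC arrays 3 and 4, 1 in place of 2 was called lower in ERY. All genes had shares of 6.93%, 4.2% and 11.2% there. In MEG against ERY 2 in place of 1 were lower at 1.5-fold, against 11.7% of all genes. The cause of these changes was not tested. Of the 12 same-numbered pairs of arrays, 4 had a correlation over 0.1. Differently numbered pairs were not compared, so this cannot decide whether replicate numbers pair the arrays. With the replicate block the counts of replication-dependent genes were 1 higher and 17 lower in MEG against HSPC. They were 1 and 0 in ERY against HSPC, and 0 and 19 in MEG against ERY. Of all genes 8.8% were higher and 11.3% lower, 8.42% and 12.2%, and 8.79% and 7.76%, in that order. Precision is limited by the 4 arrays per population and, at either end of the scale, by the array background and the highest values.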

Other observations

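Histone probe sets that name genes of more than 1 class numbered 4 and entered no count. A set of H2A and H3 genes had means of 11.35 in HSPC, 9.53 in MEG and 10.50 in ERY, and was called lower in MEG than in HSPC by limma (log2 fold change -1.82). The 3 sets of H2B genes had HSPC means of 12.34 to 12.71 and log2 fold changes in MEG of -2.36 to -0.15, with 1 of 3 called lower.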
